A study of Mus musculus with 16 samples.

Results

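The 28 genes described here encode the enzymes that build cholesterol from acetyl-CoA, the regulators of sterol regulatory element-binding protein 2 (SREBP2), and proteins of sterol uptake and movement within the cell. They were taken by name from a list, and their Ensembl identifiers were matched to mouse symbols. All 28 were among the 25006 genes of the count table, and all 28 passed the filter on low counts that left 13180 genes for testing. The list holds 8 genes of the mevalonate arm, 12 of the squalene and sterol arm, 4 of SREBP2 regulation and 4 of sterol uptake and trafficking. It was drawn up with earlier results of these data known, so counts over it describe the genes and do not test the list.

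Liver RNA came from C57BL/6 mice, a common inbred strain, and 16 libraries fall into 4 groups of 4. The fast food antibiotic group drank water with antibiotics and received 1 oral gavage of a fast food slurry. The chow antibiotic group drank the same water and received a slurry of chow, the standard laboratory feed. The fast food control and chow control groups drank normal water before the fast food or the chow slurry. In all 4 groups the liver was taken 4 h after the gavage, so every mouse had been gavaged and none represents an untreated liver. Neither the antibiotics, the make-up of the slurries, nor the age and sex of the mice are given in the sources used here. Nothing in the labels states that replicates are different mice, and p-values here measure the spread between libraries, which may be technical.

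Cells make cholesterol by condensing acetyl-CoA to mevalonate, turning mevalonate into isoprenoids, joining these into squalene, and folding and trimming the sterol ring in the endoplasmic reticulum. When the sterol content of that membrane is low, SCAP escorts SREBP2 to the Golgi, where proteases release its transcription factor domain, and genes of the pathway are transcribed. When sterols are plentiful, INSIG proteins hold SCAP and SREBP2 back. The liver is a main site of this synthesis and also takes up dietary and lipoprotein cholesterol and turns it into bile acids.

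SREBP2 is known to bind sterol regulatory elements in the promoters of its target genes, often close to CCAAT and GC boxes, so promoters of 4 listed genes are shown before their transcript levels. The RefSeq promoters searched (GRCm38.p6, from 250 bases before to 50 bases after the annotated start) covered 23 of the 28 genes, with 29 promoters. They were a part of the RefSeq table, so a listed gene absent from them may still have a promoter there. Hmgcs1 (chr13:119690101-119690400, plus strand), Srebf2 (chr15:82147019-82147318, plus strand) and Msmo1 (chr8:64733529-64733828, minus strand) are shown because they were the 3 genes with a match to TCACNCCA, a form of the sterol regulatory element. Insig1 (chr5:28071162-28071461, plus strand) is shown as an example, picked by name from the many listed genes with a CCAAT box and no such match. Each is printed 5′ to 3′ on the strand of the gene, and capitals mark matches to TCACNCCA or CCAAT on either strand (ATTGG is CCAAT on the other strand).
Hmgcs1: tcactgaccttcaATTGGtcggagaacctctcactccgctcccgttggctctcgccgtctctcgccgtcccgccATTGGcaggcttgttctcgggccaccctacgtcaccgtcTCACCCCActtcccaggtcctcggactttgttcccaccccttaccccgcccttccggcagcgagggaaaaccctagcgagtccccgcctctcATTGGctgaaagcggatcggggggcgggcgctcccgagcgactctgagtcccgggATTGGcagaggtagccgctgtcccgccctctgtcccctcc
Srebf2: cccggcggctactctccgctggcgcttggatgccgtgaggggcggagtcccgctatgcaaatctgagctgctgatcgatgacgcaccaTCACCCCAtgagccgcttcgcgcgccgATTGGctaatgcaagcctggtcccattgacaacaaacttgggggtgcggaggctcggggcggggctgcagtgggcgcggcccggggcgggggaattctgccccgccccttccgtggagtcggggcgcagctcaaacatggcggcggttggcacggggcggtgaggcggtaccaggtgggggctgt
Msmo1: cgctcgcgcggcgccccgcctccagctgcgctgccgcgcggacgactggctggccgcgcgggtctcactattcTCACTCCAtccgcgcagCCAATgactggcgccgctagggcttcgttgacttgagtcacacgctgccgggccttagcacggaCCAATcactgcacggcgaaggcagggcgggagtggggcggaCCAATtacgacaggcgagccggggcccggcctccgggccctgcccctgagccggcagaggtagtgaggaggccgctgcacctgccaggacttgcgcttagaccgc
Insig1: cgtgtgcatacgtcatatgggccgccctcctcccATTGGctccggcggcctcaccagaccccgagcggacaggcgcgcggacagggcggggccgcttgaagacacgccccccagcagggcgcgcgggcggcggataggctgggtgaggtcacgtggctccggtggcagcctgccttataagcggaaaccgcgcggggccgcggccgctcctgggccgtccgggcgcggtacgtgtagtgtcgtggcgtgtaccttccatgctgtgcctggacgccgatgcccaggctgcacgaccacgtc

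Over all 32851 promoters searched, TCACNCCA was found in 4.36% and the longer form TCACNCCAC in 1.24%. Of the 29 promoters of listed genes, 3 and 1 (Hmgcs1) held these forms. The CCAAT box was in 37.4% of all promoters and in 21 of the 29. The GC box GGGCGG was in 35.7% of all promoters and in 24 of the 29, which belong to 21 genes. The E-box CACGTG was in 7.15% of all promoters and in 6 of the 29, which belong to 5 genes. The element in Hmgcs1 began at base 114 of the 300 shown, that in Srebf2 at base 89 and that in Msmo1 at base 74. All motifs were searched on both strands, TCACNCCAC always contains TCACNCCA, and the forms of the element were chosen after the sequences had been seen. A match describes these letters only. All 4 genes shown were called higher in chow antibiotic than in chow control livers, beside 21 of the 28 listed genes and 10.6% of all genes. Insig1, without a match to TCACNCCA, was among them, and a link between motif and level was not tested.

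Total counts ran from 8954378 to 18954655 per library, and the listed genes had between 10 (Idi1) and 17271 reads in a library. The 7 hepatocyte markers, Alb and Apoa1 among them, summed to between 85500 and 212000 CPM, counts scaled to library size, so the defining markers of liver were high in each library. On a score of 8 acute phase transcripts (mean log2 deviation from the average library) the 3 highest libraries were fast food antibiotic replicate 2 (2.97), chow antibiotic replicate 4 (2.77) and chow control replicate 2 (1.65), while the other 13 lay between -1.54 and 0.99. The share of counts in 4 features with reads like ribosomal RNA (Lars2, Mir6236, Gm20594 and Mir6240) was over 1% in fast food antibiotic replicates 1, 2 and 4, chow antibiotic replicates 2 and 4, and chow control replicates 1 and 2. It was under 1% in all 4 fast food control libraries. Replicates within a group differed by more than counting noise.

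Levels below are CPM with library sizes scaled by TMM factors, which correct for composition. Differences are log2 fold changes with their standard error (SE) from edgeR's quasi-likelihood test, called at a Benjamini-Hochberg adjusted p under 0.05 over all 13180 genes. As a mean log2 deviation from the average library, the 28 genes scored 0.11 ± 0.68 in fast food antibiotic livers, 0.81 ± 0.29 in chow antibiotic livers, -0.34 ± 0.21 in fast food control livers and -0.58 ± 0.12 in chow control livers (SD, n = 4 each). The mean level was highest in the chow antibiotic group for 22 of the 28 genes and lowest in the chow control group for 19. The heatmap of all libraries shows this order and the wide spread of the fast food antibiotic group.

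**Figure D1:**
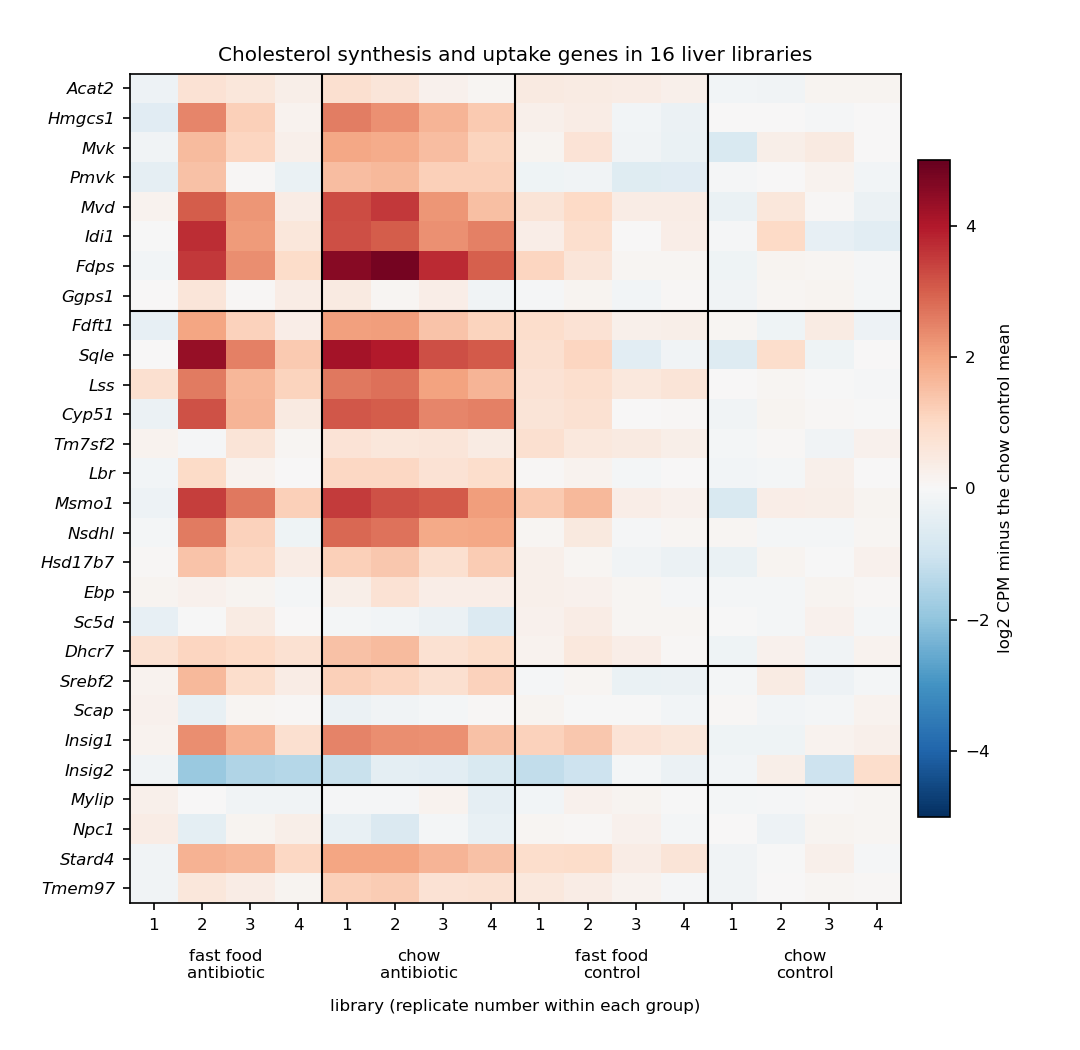
Log2 CPM of each of the 28 genes minus its mean in the chow control libraries (color, log2 scale), with genes in rows by role and the 16 libraries in columns by group. The 4 chow antibiotic columns are high for most synthesis genes, while in the fast food antibiotic group replicate 2 is high, replicate 3 is between and replicate 1 lies near the chow control columns.

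The first comparison asks how antibiotic water went with these transcripts after a chow meal. Chow antibiotic livers had 21 of the 28 genes called higher than chow control livers and 0 called lower, beside 10.6% of all genes called higher and 13.2% called lower. The median log2 fold change of the 28 was 1.31, against -0.01 over all genes. For all 21 called genes the 4 chow antibiotic libraries lay above the 4 chow control libraries, and such a separation was seen upwards in 11.2% and downwards in 13.6% of all genes. In bulk tissue, fewer cells of a type and less RNA per cell cannot be told apart, so each level is an average over the cells of the liver piece.

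In the mevalonate arm 6 of 8 genes rose, with a median of 1.82. Fdps (chr3:89093588-89101959), farnesyl diphosphate synthase, makes the building block shared by sterols and other isoprenoids. It had 150, 178, 85.1 and 50.6 CPM in chow antibiotic replicates 1 to 4, against 5.47, 7.01, 6.74 and 6.12 CPM in chow control replicates 1 to 4. The lowest chow antibiotic library was thus far above the highest chow control library, and the log2 fold change was the largest of the 28 genes (4.19 ± 0.69, 18.2-fold, edgeR adjusted p = 0.00115).

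Hmgcs1 (chr13:119690379-119708260) encodes the cytosolic HMG-CoA synthase that feeds the pathway. Its levels were 554, 456, 305 and 231 CPM in chow antibiotic livers, against 93.7, 95.6, 88.8 and 95 CPM in chow control livers. The control values were nearly level with each other (93.3 ± 3.1 CPM), whereas the antibiotic values spread (387 ± 146 CPM, SD, n = 4 each), and the groups did not overlap (2.05 ± 0.50, adjusted p = 0.0102). Idi1 (chr13:8885501-8892451), isopentenyl diphosphate isomerase, was the lowest of the 28 genes per kb of exon, at 0.352 ± 0.214 CPM per kb in chow control livers. It had 11.3, 10.1, 5.96 and 6.96 CPM in chow antibiotic libraries and 1.07, 2.34, 0.793 and 0.732 CPM in chow control libraries. Even the highest control library lay under the lowest antibiotic library (2.82 ± 0.67, adjusted p = 0.00798).

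Mvd, the decarboxylase that makes isopentenyl diphosphate (2.87 ± 0.61), and the kinase genes Mvk (1.58 ± 0.35) and Pmvk (1.40 ± 0.32) also rose. Acat2, a cytosolic acetoacetyl-CoA thiolase, had 21.5 ± 4.82 CPM in chow antibiotic and 15.7 ± 1.85 CPM in chow control livers and was not called (0.46 ± 0.18, adjusted p = 0.0782). Ggps1, which leads from farnesyl to geranylgeranyl diphosphate and so away from sterols, had 11.3 ± 2.14 CPM in chow antibiotic and 9.96 ± 1.1 CPM in chow control livers (0.19 ± 0.16, adjusted p = 0.412).

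In the squalene and sterol arm 11 of 12 genes rose, with a median of 1.47. Sqle (chr15:59315077-59331192), squalene epoxidase, which adds the first oxygen on the way to the sterol ring, had 217, 190, 112 and 101 CPM in chow antibiotic livers. Its chow control values were 7.51, 21.8, 10.3 and 11.9 CPM. The log2 fold change was 3.58 ± 0.80, or 12-fold (adjusted p = 0.00655), with no overlap between the groups.

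Lss (chr10:76531588-76557138), the lanosterol synthase that closes the ring, had 105, 115, 69.1 and 55 CPM in chow antibiotic livers and 17, 18, 16.5 and 16.3 CPM in chow control livers. The control libraries differed by under 2 CPM, and the change was among the 6 with the lowest p (2.35 ± 0.33, adjusted p = 0.000289). Dhcr7 (chr7:143823145-143848410), which reduces 7-dehydrocholesterol to cholesterol in the last step of that route, had 33.1, 36, 20.5 and 22.7 CPM in chow antibiotic livers and 10.2, 13.8, 10.7 and 13.4 CPM in chow control livers. Its change was smaller than that of Lss but had the lowest p of the 28 genes (1.22 ± 0.18, adjusted p = 0.000207).

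Among the enzymes that trim the ring, Msmo1 (2.99 ± 0.67), Cyp51 (2.80 ± 0.58) and Nsdhl (2.45 ± 0.51) rose most. Msmo1, a sterol C4-methyl oxidase, has Nsdhl as its partner in removing the C4 methyl groups, and Cyp51 is the lanosterol demethylase. Fdft1, squalene synthase (1.71 ± 0.41), Hsd17b7, a sterol ketoreductase (1.15 ± 0.24), Lbr, a sterol reductase that is also a protein of the nuclear envelope (0.92 ± 0.19), Tm7sf2, the other enzyme of that reduction (0.57 ± 0.15), and Ebp, a sterol isomerase (0.44 ± 0.11), rose by less. Sc5d, a sterol desaturase next to Dhcr7 in the route, was the only gene of this arm not called, at 154 ± 26.4 CPM in chow antibiotic and 189 ± 21.9 CPM in chow control livers (-0.30 ± 0.16, adjusted p = 0.188). Per kb of exon, Sc5d and Ebp were the highest of the 12 in chow control livers, at 38.9 ± 4.49 and 58.3 ± 4.52 CPM per kb, whereas Lss was at 1.57 ± 0.0709 CPM per kb.

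Of the 4 regulators, 2 rose. Srebf2 (chr15:82147181-82205379), which encodes SREBP2 itself, had 55.9, 51.1, 43 and 53.8 CPM in chow antibiotic livers and 22.9, 32.6, 20.5 and 22.8 CPM in chow control livers. The antibiotic values were close to each other and above all control values (1.05 ± 0.25, 2.06-fold, adjusted p = 0.00705). Insig1 (chr5:28071363-28078662), an INSIG gene that is itself a target of SREBPs, had 328, 292, 284 and 159 CPM in chow antibiotic livers, against 49.5, 49.8, 65.4 and 70 CPM in chow control livers. No library of one group reached the other (2.18 ± 0.39, adjusted p = 0.00147).

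Insig2 (chr1:121304353-121332589), the second INSIG gene, went the other way in its means without being called. It had 225, 353, 344 and 292 CPM in chow antibiotic livers and 447, 595, 242 and 903 CPM in chow control livers, so that the groups overlapped (-0.85 ± 0.41, adjusted p = 0.152). Its chow control value of 157 ± 80.1 CPM per kb was the highest per exon length of the 28 genes. Scap, which escorts SREBP2, had 111 ± 11 CPM in chow antibiotic and 121 ± 11.6 CPM in chow control livers (-0.13 ± 0.12, adjusted p = 0.459).

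Of the 4 genes of uptake and trafficking, 2 rose. Stard4, a soluble carrier of cholesterol between membranes, had 163, 161, 135 and 114 CPM in chow antibiotic livers and 36.8, 41.1, 48.9 and 39.1 CPM in chow control livers. Tmem97 (chr11:78541817-78550777), a sterol-responsive membrane protein that binds NPC1, had 57.2, 61.3, 41.4 and 43.2 CPM in chow antibiotic livers and 22.4, 25.8, 26.7 and 26.1 CPM in chow control livers. Both were without overlap, with log2 fold changes of 1.79 ± 0.30 for Stard4 (adjusted p = 0.000878) and 1.01 ± 0.17 for Tmem97 (adjusted p = 0.000642). Npc1, which exports cholesterol from lysosomes, had 178 ± 30.2 CPM in chow antibiotic and 233 ± 25.5 CPM in chow control livers and was not called (-0.39 ± 0.16, adjusted p = 0.0989). Mylip, the ligase that degrades lipoprotein receptors, had 23 ± 4.01 CPM in chow antibiotic and 24.5 ± 1.4 CPM in chow control livers (-0.09 ± 0.13, adjusted p = 0.669).

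**Figure D2:**
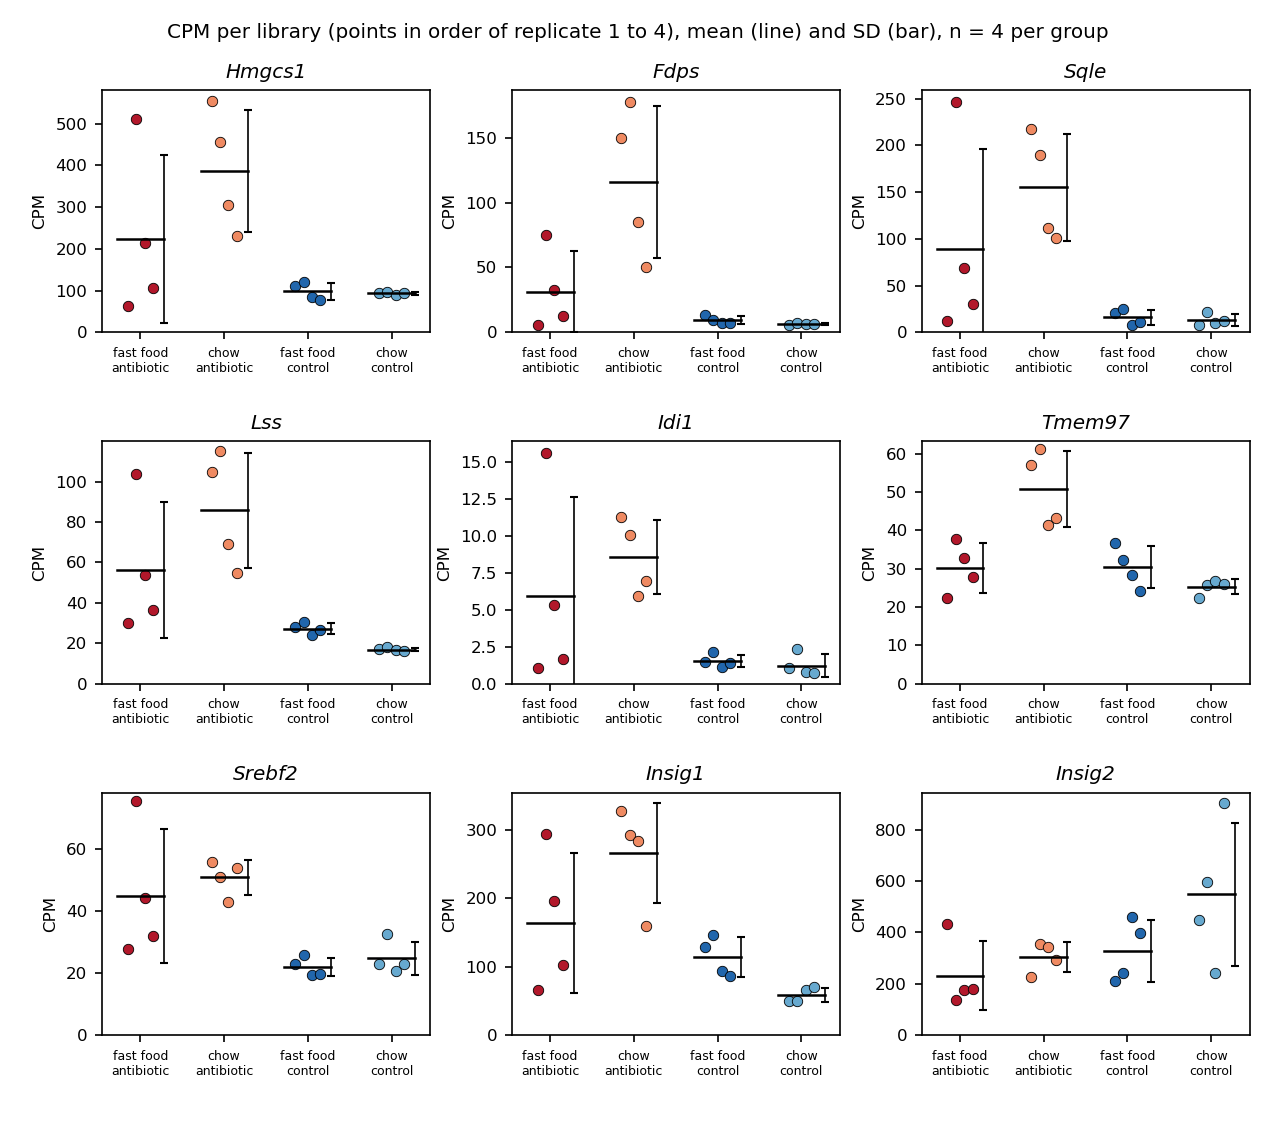
CPM of 9 genes in each library (points, replicates 1 to 4 from left to right), with the group mean (line) and SD (bar, n = 4, cut at 0 where it would go below). For every gene but Insig2 the 4 chow antibiotic points lie above the 4 chow control points, and in the fast food antibiotic group replicate 2 is the highest point of all of them but Insig2.

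All 21 genes kept their call in each of the 17 alternative settings run for this comparison, with 21 or 22 of the 28 genes called whichever single library was left out. With 2 libraries against 2 on each side of the ribosomal RNA-like share, their log2 differences ran from 0.23 to 4.11 under 1%. Over 1% they ran from 0.52 to 3.91. Because the groups did not overlap for these genes, the sign on each side was fixed beforehand and is no separate test. Cell-type markers differed between the same groups. The hepatocyte list summed to 150000 to 212000 CPM in chow antibiotic and 92100 to 125000 CPM in chow control livers, with 4 of 7 genes called higher (Alb, Apoa1, Serpina1a and Cps1). The Kupffer and macrophage list summed to 139 to 183 CPM in chow antibiotic and 218 to 640 CPM in chow control livers, with 5 of 6 genes called lower. The part of these shifts in the values of the 28 genes was not tested. Exons of 11 of the 28 genes share 69 to 1124 bases with another gene (Fdps with Gm43738 on its own strand, 1124 bases), and no source used here gives the strand setting of the counting, so their counts are uncertain to that extent.

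**Figure D3:**
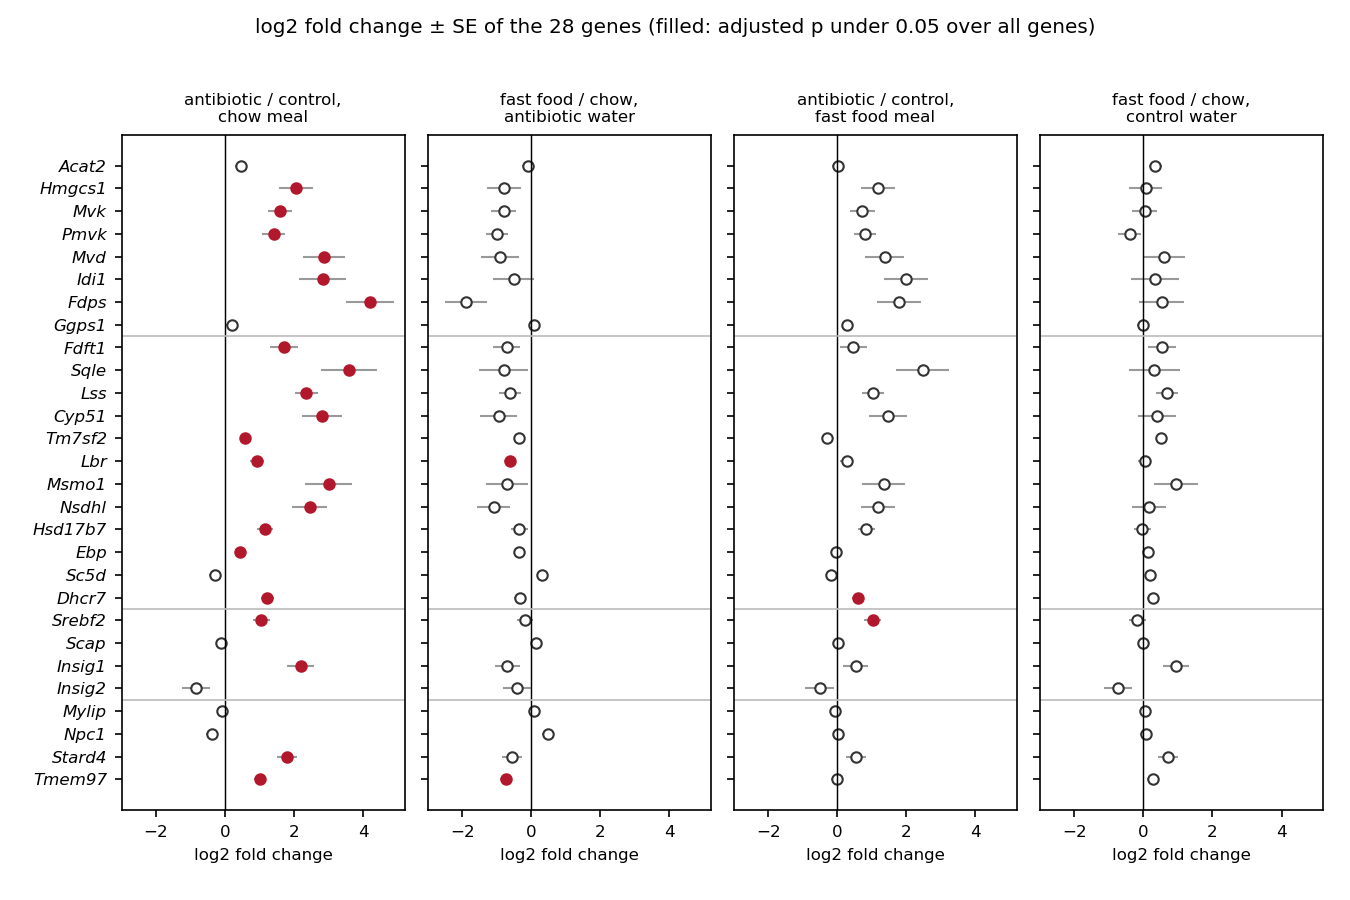
Log2 fold change ± SE of the 28 genes (rows, grouped by role) in the 4 comparisons of 2 groups, with filled points at an adjusted p under 0.05 over all genes tested. The filled points number 21 for antibiotic over control water after chow, 2 for fast food over chow in antibiotic water, 2 for antibiotic over control water after fast food and 0 for fast food over chow in control water.

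The second comparison sets the fast food meal against chow in mice on antibiotic water. Fast food antibiotic livers had 2 of the 28 genes called lower than chow antibiotic livers, Tmem97 and Lbr, and 0 called higher, beside 5.87% of all genes called lower and 7.78% called higher. The median of the 28 was -0.58, against 0.03 over all genes, and 23 of the 28 fold changes were negative. Ebp and Tmem97 were lower without overlap and no listed gene was higher without overlap, beside 6.71% of all genes lower and 7.78% higher without overlap.

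Tmem97 had 22.4, 37.8, 32.8 and 27.9 CPM in fast food antibiotic replicates 1 to 4, against 57.2, 61.3, 41.4 and 43.2 CPM in chow antibiotic replicates 1 to 4. All 4 fast food values were below all 4 chow values (-0.74 ± 0.17, adjusted p = 0.0109). The call held whichever single library of the 2 groups was left out, and it was lost when only these 2 groups were fitted (adjusted p = 0.0615).

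Lbr had 14, 30, 17.5 and 15.9 CPM in fast food antibiotic livers and 32.1, 31.8, 26 and 29 CPM in chow antibiotic livers. Replicate 2 of the fast food group lay among the chow values and the other 3 well below them (-0.61 ± 0.18, adjusted p = 0.0374). That call was lost without replicate 1 (adjusted p = 0.0662) or 2 (0.0813) of the chow group, and without fast food antibiotic replicate 1 (0.104), 3 (0.104) or 4 (0.119). Pmvk, the third gene by p, had 9.75, 36.7, 13.8 and 10.5 CPM in fast food antibiotic livers and 38.4, 41.2, 30.2 and 30.7 CPM in chow antibiotic livers. Here too replicate 2 stood alone among the chow values, and the gene was not called (-0.98 ± 0.32, adjusted p = 0.0537).

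The genes with the largest rises in the chow comparison spread most within the fast food antibiotic group. Fdps had 5.67, 75, 32.5 and 12.2 CPM in the 4 fast food antibiotic livers, so that replicate 2 exceeded the lowest chow antibiotic library and replicate 1 lay within the chow control range (-1.88 ± 0.61, adjusted p = 0.0586). Hmgcs1 had 63.8, 510, 213 and 106 CPM in the same livers (-0.79 ± 0.49, adjusted p = 0.292). Its replicate 1 was below every other library of the study, and its replicate 2 was within the chow antibiotic range.

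Sqle followed the same order, with 12.2, 246, 68.4 and 29.8 CPM (-0.80 ± 0.72, adjusted p = 0.482), as did Idi1, with 1.09, 15.6, 5.31 and 1.7 CPM (-0.51 ± 0.59, adjusted p = 0.597). In both genes replicate 2 was the highest library of the 16. Between replicates 2 and 1 the ratio was 20.2 for Sqle, 14.3 for Idi1, 13.4 for Msmo1, 13.2 for Fdps and 11.2 for Cyp51. Insig1 had 65.6, 293, 196 and 102 CPM (-0.69 ± 0.37, adjusted p = 0.226) and Srebf2 had 27.7, 75.4, 44.2 and 31.8 CPM (-0.18 ± 0.24, adjusted p = 0.653). Insig2 ran the other way among the 4 livers, with 431, 136, 174 and 181 CPM, its single high value in replicate 1 (-0.40 ± 0.41, adjusted p = 0.548).

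Replicate 2 was the highest of the 4 fast food antibiotic libraries for 22 of the 28 genes, and replicate 1 the lowest for 20. Of the 21 genes called in the chow comparison, the numbers above every control-water library were 1, 19, 16 and 5 in fast food antibiotic replicates 1 to 4. The numbers at or above the lowest chow antibiotic library were 0, 18, 9 and 0. The 4 livers of this group thus ran from near the control-water levels to the chow antibiotic levels, and a group mean describes none of them closely.

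Without fast food antibiotic replicate 2, 17 of the 28 genes were called lower and 1, Npc1, higher, beside 10.9% and 11.9% of all genes, and the median was -0.90. Pmvk (-1.63 ± 0.17, adjusted p = 9.41e-06), Fdps (-2.76 ± 0.56, adjusted p = 0.00455), Hmgcs1 (-1.61 ± 0.37, adjusted p = 0.0081), Sqle (-2.07 ± 0.59, adjusted p = 0.0269) and Srebf2 (-0.56 ± 0.17, adjusted p = 0.0284) were among them. Without chow antibiotic replicate 2, 1 listed gene was called, beside 965 of all genes. Without fast food antibiotic replicate 1, 3 or 4, the counts were 1, 2 and 1, beside 1086, 842 and 697 of all genes. Replicate 2 also had the highest acute phase score of all libraries (2.97), and fast food antibiotic replicate 3, with a score of -0.89, was the next highest of the group in the mean over the 28 genes (0.38, after 0.93 in replicate 2). The ribosomal RNA-like share was 6.17%, 2.71%, 0.587% and 8.23% in replicates 1 to 4. Hepatocyte markers summed to 85500 to 141000 CPM in fast food antibiotic and 150000 to 212000 CPM in chow antibiotic livers, with 4 of 7 called lower (Alb, Apoa1, Ttr and Serpina1a). The part of these measures in the spread of the listed genes was not tested.

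**Figure D4:**
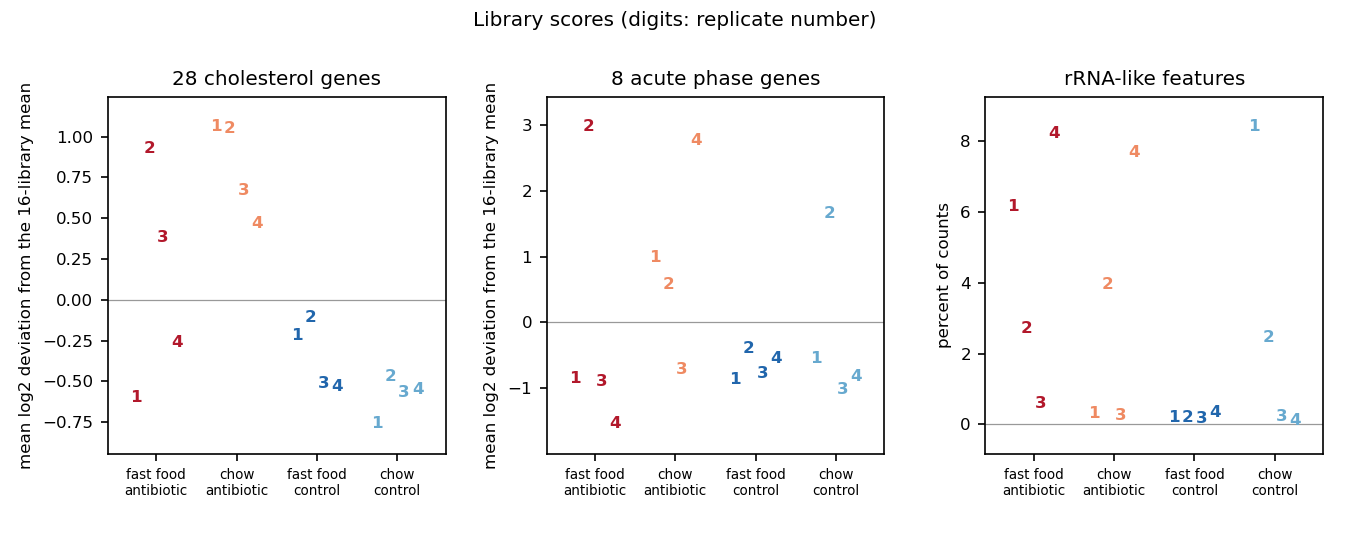
Mean log2 deviation of the 28 genes (left) and of 8 acute phase genes (middle) from the 16-library mean, and percent of counts in the ribosomal RNA-like features (right), with each library shown by its replicate number. On the left the fast food antibiotic libraries run from -0.60 to 0.93, a wider span than in any of the other 3 groups.

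The third comparison sets antibiotic against control water after the fast food meal. Fast food antibiotic livers had 2 of the 28 genes called higher than fast food control livers, Srebf2 and Dhcr7, and 0 called lower, beside 3.77% of all genes called higher and 2.22% called lower. The median was 0.57, against 0.02 over all genes, with 22 of 28 fold changes positive. The same 2 genes were the only ones higher without overlap and none was lower without overlap, beside 9.98% of all genes higher and 8.38% lower without overlap.

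Srebf2 had 27.7, 75.4, 44.2 and 31.8 CPM in fast food antibiotic livers, against 23, 25.7, 19.5 and 19.8 CPM in fast food control livers. The lowest antibiotic value was just above the highest control value (1.03 ± 0.25, adjusted p = 0.0307). Dhcr7 had 20.3, 24.9, 23.8 and 20.2 CPM in fast food antibiotic livers and 13.6, 17.3, 14.9 and 12.5 CPM in fast food control livers. Its 4 antibiotic values lay within 5 CPM of each other and above all control values (0.61 ± 0.17, adjusted p = 0.0466). Hsd17b7, the third gene by p, had 74.9, 194, 147 and 91.8 CPM in fast food antibiotic livers and 85.5, 77.2, 62.7 and 59.1 CPM in fast food control livers. Only its antibiotic replicate 1 lay inside the control range, and the gene was not called (0.84 ± 0.24, adjusted p = 0.0514).

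Sqle (2.47 ± 0.76, adjusted p = 0.0701) and Idi1 (1.98 ± 0.64, adjusted p = 0.0754) had the largest fold changes of this comparison without being called. Sqle was 20.9, 24.9, 8.26 and 10.6 CPM and Idi1 was 1.44, 2.12, 1.12 and 1.42 CPM in the fast food control livers. For both genes fast food antibiotic replicate 1 lay inside or under that range and replicates 2 and 3 above it. Hmgcs1 (1.19 ± 0.49, adjusted p = 0.148) and Insig1 (0.53 ± 0.37, adjusted p = 0.391) overlapped between the groups, with fast food control values of 76.7 to 121 CPM for Hmgcs1 and 85.5 to 146 CPM for Insig1. Insig2 had 212, 242, 461 and 396 CPM in fast food control livers (-0.51 ± 0.41, adjusted p = 0.465). Tmem97, lower after fast food than after chow in antibiotic water, averaged 30.2 ± 6.62 CPM in fast food antibiotic and 30.4 ± 5.4 CPM in fast food control livers (0.00 ± 0.17, adjusted p = 0.989).

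Without fast food antibiotic replicate 1, 8 genes were called higher (Idi1, Fdps, Sqle, Lss, Cyp51, Hsd17b7, Srebf2 and Stard4), with a median of 0.80 and 2.57% of all genes called higher. Without replicate 2 of that group 0 listed genes were called, beside 378 of all genes, and the median was 0.23. Without any 1 of the 4 fast food control libraries 0 listed genes were called either. Over all genes 117, 168, 78 and 536 were called without fast food control replicates 1 to 4, against 790 with all libraries. Srebf2 then had an adjusted p of 0.0829, 0.0596, 0.0918 and 0.059, and Dhcr7 of 0.126, 0.0668, 0.11 and 0.0966. Dhcr7 was also not called without fast food antibiotic replicate 1 (0.0594), 2 (0.101), 3 (0.0725) or 4 (0.079), nor Srebf2 without replicate 2 (0.65 ± 0.17, adjusted p = 0.0526). Without replicate 3, Tm7sf2 was called lower beside Srebf2, and without replicate 4, Srebf2 alone was called. With the ribosomal RNA-like share in the model, 0 listed genes were called. Over all genes, 15 were called with it as a covariate and 0 as a split at 1%, against 790 without that term. The adjusted p for Srebf2 was 0.0937 with the covariate and 0.248 with the split. No control library of this comparison had a share over 1%, so within-share values could not be had on that side, and under 1% the antibiotic group had a single library. The Kupffer and macrophage list summed to 141 to 222 CPM in fast food antibiotic and 268 to 363 CPM in fast food control livers, with 3 of 6 genes called lower, and its part was not tested.

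**Figure D5:**
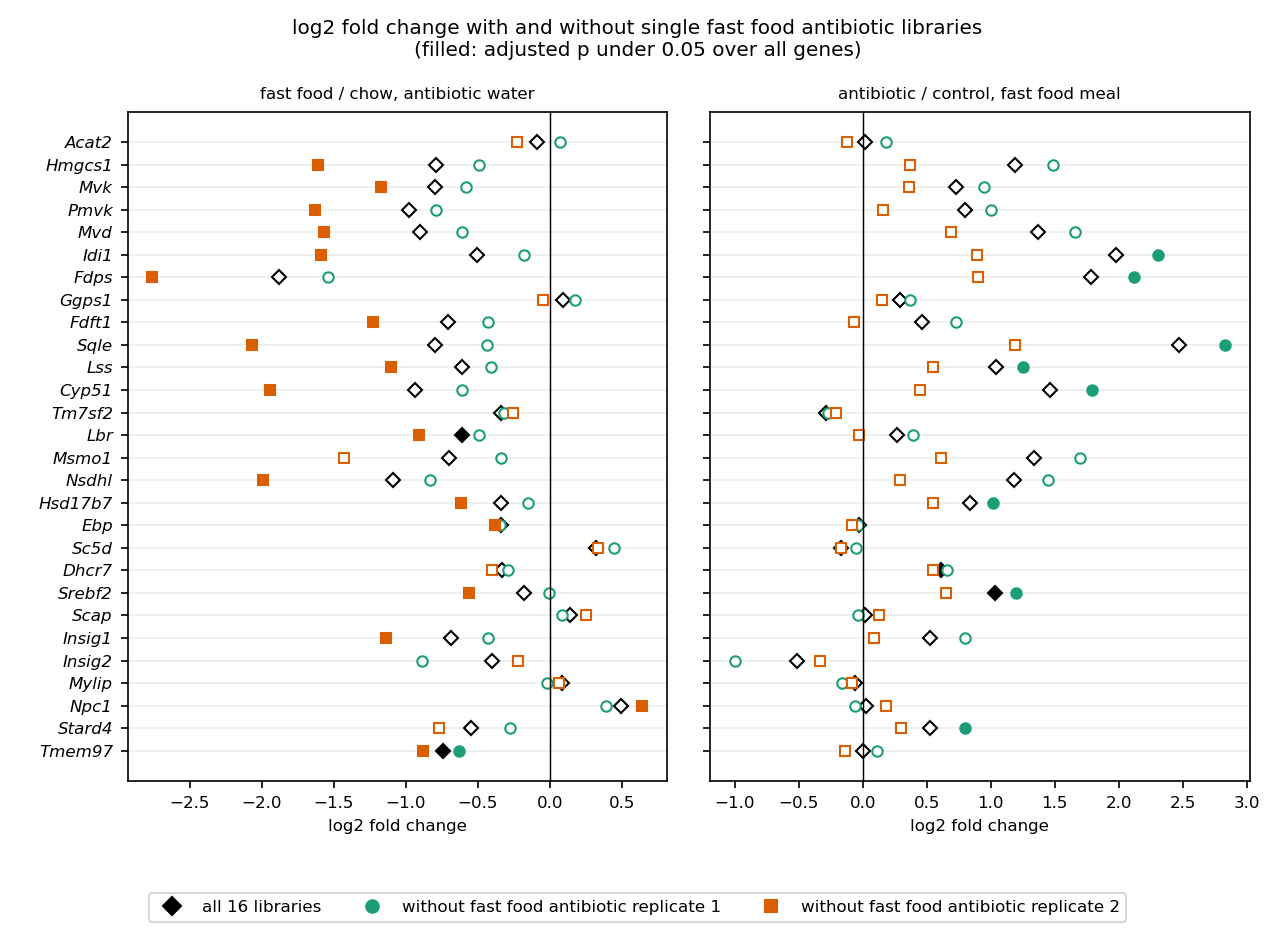
Log2 fold change of each gene with all 16 libraries (diamonds), without fast food antibiotic replicate 1 (circles) and without replicate 2 (squares), for fast food over chow in antibiotic water (left) and antibiotic over control water after fast food (right); filled symbols have an adjusted p under 0.05. Without replicate 2, 18 genes are filled on the left and 0 on the right, and without replicate 1 the counts are 1 and 8.

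The fourth comparison, of the meals in control water, had 0 of the 28 genes called by edgeR, beside 0.243% of all genes called higher and 0.334% called lower. At an unadjusted p under 0.05 there were 4 of the 28, beside 11.5% of all genes. DESeq2 called 1 (Tm7sf2, adjusted p = 0.039) and a fit to these 2 groups alone called 4, beside 299 and 365 of all genes. The median was 0.23, against -0.02 over all genes, and moved to 0.12 without fast food control replicate 2 and to 0.09 with the ribosomal RNA-like share as a covariate. Acat2, Lss, Tm7sf2, Insig1 and Stard4 were higher without overlap and Pmvk lower without overlap, that is 5 and 1 of 28, and over all genes the shares were 5.17% and 5.15%.

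Tm7sf2 had 102, 84.7, 79.5 and 73 CPM in fast food control replicates 1 to 4, against 54.4, 62.2, 52.6 and 68 CPM in chow control replicates 1 to 4. The groups were separate but close at their edges (0.51 ± 0.15, adjusted p = 0.129). Insig1 had 129, 146, 93.6 and 85.5 CPM in fast food control livers and 49.5, 49.8, 65.4 and 70 CPM in chow control livers, and Stard4 had 75.8, 77.8, 53.7 and 64.7 CPM in fast food control livers and 36.8, 41.1, 48.9 and 39.1 CPM in chow control livers. Their log2 fold changes were 0.95 ± 0.38 for Insig1 (adjusted p = 0.338) and 0.71 ± 0.29 for Stard4 (adjusted p = 0.357).

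For the 3 other genes followed throughout, the meals overlapped in control water. Fold changes were 0.07 ± 0.48 for Hmgcs1, 0.32 ± 0.74 for Sqle and 0.34 ± 0.70 for Idi1, with SEs larger than the values. Srebf2 had 22 ± 2.96 CPM in fast food control and 24.7 ± 5.4 CPM in chow control livers (-0.17 ± 0.25, adjusted p = 0.865). Insig2 had 328 ± 120 CPM in fast food control and 547 ± 278 CPM in chow control livers (-0.74 ± 0.41, adjusted p = 0.542). The value for Msmo1 was 0.94 ± 0.63 (adjusted p = 0.634).

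The interaction asks whether the meal difference depended on the water. It was called negative for Tm7sf2 and Tmem97, and positive for 0 of the 28 genes, beside 1.58% of all genes called negative and 2.36% called positive. The median was -0.84, against 0.06 over all genes, and 22 of 28 values were negative. For Tm7sf2 the meal difference was -0.34 in antibiotic and 0.51 in control water, an interaction of -0.86 ± 0.21 (adjusted p = 0.0295). In the fast food antibiotic libraries it had 66.2, 55.9, 92.6 and 62.3 CPM and in the chow antibiotic libraries 94.6, 87.3, 90.3 and 79.2 CPM, so that replicate 3 of the fast food group stood apart from the other 3. Tmem97, whose values are given above, had an interaction of -1.01 ± 0.24 (adjusted p = 0.0277), with the meal difference at -0.74 in antibiotic and 0.27 in control water.

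Larger interactions with wide errors did not pass, such as Fdps (-2.41 ± 0.89, adjusted p = 0.139), Insig1 (-1.64 ± 0.53, adjusted p = 0.0908) and Stard4 (-1.26 ± 0.41, adjusted p = 0.0934). Hmgcs1 (-0.87 ± 0.69), Sqle (-1.12 ± 1.03) and Idi1 (-0.84 ± 0.92) did not pass either, and Srebf2 (-0.02 ± 0.35) and Insig2 (0.34 ± 0.58) were near 0 for their errors. Without fast food antibiotic replicate 2, 12 of the 28 genes were called negative, beside 4.86% of all genes called negative and 6.33% called positive, with Fdps (-3.30 ± 0.74, adjusted p = 0.0149), Insig1 (-2.09 ± 0.47, adjusted p = 0.0122) and Stard4 (-1.49 ± 0.41, adjusted p = 0.0328) among them. Neither Tm7sf2 nor Tmem97 was called without chow control replicate 1 (adjusted p = 0.0691 for Tm7sf2 and 0.0646 for Tmem97), fast food control replicate 1 (0.0675 and 0.0653), 2 (0.0574 and 0.0574) or 3 (0.0564 and 0.0519), fast food antibiotic replicate 4 (0.0709 and 0.0659) or chow antibiotic replicate 2 (0.0508 and 0.0567). Tm7sf2 alone was also lost without fast food antibiotic replicate 1 (0.0553) or chow antibiotic replicate 3 (0.0525), and both were lost with the ribosomal RNA-like share as a covariate (0.0796 and 0.0759) or as a split (0.0759 and 0.0642). Comparisons above that share a group share its libraries, so their values are not independent of each other.

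For other genes of sterol metabolism, on 5 lists that go with the pathway, the counts in chow antibiotic against chow control livers stand beside 10.6% of all genes called higher and 13.2% called lower, and the lists were not tested against that background. Of 9 tested genes around the liver X receptors and oxysterols, 2 rose and 3 fell (list median 0.11). The oxysterol 7-hydroxylase genes Cyp7b1 (570 ± 216 CPM in chow antibiotic and 94.4 ± 17.9 CPM in chow control livers, 2.59 ± 0.29, adjusted p = 4.22e-05) and Cyp39a1 (271 ± 29.3 CPM in chow antibiotic and 63.6 ± 6.56 CPM in chow control livers, 2.09 ± 0.26, adjusted p = 9.19e-05) rose. The sterol exporter gene Abcg1 (-0.67 ± 0.18), the liver X receptor gene Nr1h3 (-0.54 ± 0.14) and the brain cholesterol hydroxylase gene Cyp46a1 (-1.76 ± 0.55) fell, the last at no more than 1.04 CPM in any library and named here after its values were seen. Abcg1 was not called without chow control replicate 3 (-0.50, adjusted p = 0.0518) or in a fit to the 2 groups alone (adjusted p = 0.0523).

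Of 14 genes of sterol esterification, hydrolysis and transport, 0 rose and 3 fell (list median -0.14). Lipa, the lysosomal lipase that frees cholesterol from esters, had 123 ± 10.8 CPM in chow antibiotic and 300 ± 48.3 CPM in chow control livers (-1.29 ± 0.21, adjusted p = 0.000518). Scarb1, the receptor for high-density lipoprotein, had 106 ± 17.6 CPM in chow antibiotic and 157 ± 7.39 CPM in chow control livers (-0.56 ± 0.12, adjusted p = 0.00254). Gramd1c, a sterol carrier gene of membrane contacts, fell by less (-0.39 ± 0.13, adjusted p = 0.0323) and was not called without chow control replicate 1 (0.0805), 2 (0.0742) or 3 (0.0745), or chow antibiotic replicate 1 (0.0579) or 4 (0.112), in a fit to the 2 groups alone (0.073) or without the 3 libraries of highest acute phase score (0.157). Lipa is also made by macrophages, whose markers were lower in the same livers, as given above. The part of that shift in the Lipa value was not tested.

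Of 9 tested genes of acetyl-CoA supply and other SREBP targets, 2 rose and 1 fell (list median 0.36): Lpin1, a phosphatidate phosphatase gene (1770 ± 622 CPM in chow antibiotic and 151 ± 35.7 CPM in chow control livers, 3.55 ± 0.50, adjusted p = 0.00033), Rdh11, a retinol dehydrogenase gene (1.29 ± 0.28), and the malic enzyme gene Me1 (-0.64 ± 0.14). Of 11 genes of SREBP processing and sterol-sensing degradation, 0 rose and Erlin1 (-0.70 ± 0.14) and Erlin2 (-0.55 ± 0.11), parts of one complex of the endoplasmic reticulum, fell (list median 0.02). Of 11 genes of the isoprenoid branches, Rabggtb, a subunit of a geranylgeranyl transferase (0.51 ± 0.09), rose and Pdss2, of ubiquinone synthesis (-0.71 ± 0.15), fell (list median 0.15).

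After fast food in antibiotic water, where 7.78% of all genes were called higher and 5.87% lower, 1 of the 11 genes of SREBP processing was higher than after chow (Erlin1, 0.71 ± 0.14), and of the 9 oxysterol genes 2 were lower, Cyp7b1 (128 ± 21.7 CPM in fast food antibiotic and 570 ± 216 CPM in chow antibiotic livers, -2.16 ± 0.28, adjusted p = 0.000695) and Cyp39a1 (-0.94 ± 0.25). Of the other lists, Rdh11 (-1.11 ± 0.28), Lpin1 (-1.50 ± 0.46), Rabggtb (-0.46 ± 0.09), Fnta, a farnesyl transferase subunit (-0.40 ± 0.10), and Npc2, the lysosomal partner of NPC1 (-0.49 ± 0.12), were lower, and Lrp1, a remnant receptor (0.67 ± 0.22, adjusted p = 0.048), higher. The call of Cyp7b1 held in all 17 settings, that of Lrp1 in 5 and that of Lpin1 in 7. Single libraries also decided Cyp39a1 (not called without fast food antibiotic replicate 1, 3 or 4, adjusted p of 0.0685, 0.0754 and 0.0746), Rdh11 (without fast food antibiotic replicate 4, 0.0618, or chow antibiotic replicate 2, 0.0526), Npc2 (without fast food antibiotic replicate 3, 0.0601, or 4, 0.0635) and Fnta (without fast food antibiotic replicate 4, 0.0563). In a fit to the 2 groups alone, the calls of Erlin1 (adjusted p = 0.0536), Rabggtb (0.0508), Fnta (0.0744), Rdh11 (0.115), Cyp39a1 (0.12), Lpin1 (0.135) and Lrp1 (0.11) were lost, and 229 of all genes were called. Between waters after fast food, Dhdds, of dolichol synthesis (0.54 ± 0.13), Cyp39a1 (0.99 ± 0.25) and Lpin1 (1.84 ± 0.46) were higher in antibiotic livers, beside 3.77% of all genes called higher and 2.22% lower. Those 3 calls held in 9, 9 and 6 of the 17 settings, and in 3, 4 and 2 of the 8 that left out a single library. The interaction was negative for Cyp7b1 (-3.15 ± 0.39, adjusted p = 0.00199) and Rabggtb (-0.82 ± 0.13) and positive for Dhdds (0.88 ± 0.19), whose call was lost with the ribosomal RNA-like share as a covariate (adjusted p = 0.0507) or as a split (0.0558). Over all genes 1.58% were called negative and 2.36% positive. In control water 0 genes of the 5 lists were called between the meals.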

How the data were processed

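RNA of mouse liver was read as single reads of 50 bases on libraries made with an Illumina mRNA kit, per the labels' protocols. The authors deposited a table of raw counts per gene. Per the submitters' processing notes, which give no versions, they used FastQC and cutadapt, STAR and HTSeq, DESeq2 and edgeR, and the build GRCm38.p6. Which annotation release was counted, whether by strand, and how multiply mapped reads were handled is not given in the sources used here.

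From these counts, edgeR 4.0.16 in R 4.3.3 (filterByExpr with a minimum count of 10, TMM factors, robust quasi-likelihood F test, two-sided) was fitted to all 16 libraries with a mean for each of 4 groups and no covariate. The common biological coefficient of variation was 0.222. Contrasts gave 4 comparisons and the interaction, 5 in all, with Benjamini-Hochberg adjustment over 13180 genes at 0.05. The SE is |log2 fold change| / sqrt(F). The fit was also run on simulated counts, for antibiotic against control water after chow only. Those counts took their spread from the same fit, so that run does not test the spread. Symbols, coordinates and exon lengths came from GENCODE M21 (GRCm38, 1-based), and 24942 of 25006 identifiers had a symbol.

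The 28 genes, the 5 other lists and the cell-type markers were chosen with earlier results of these data known. Every listed gene is accounted for. Library values are given for Hmgcs1, Idi1, Sqle, Insig1, Insig2 and Srebf2, for up to 6 called genes of lowest p per comparison, and for the 3 of lowest p where fewer than 3 were called. The other lists give up to 4 called genes of lowest p each. Ch25h and Pnpla3 were too low to be tested.

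Alternatives were DESeq2 1.42.0, RLE factors, no filter, a minimum mean of 10 counts per group, a fit restricted to the groups compared, a block for the replicate number, and omission of each library. Chosen after seeing the data were leaving out the 3 libraries with high acute phase transcripts, and the ribosomal RNA-like share as a covariate or as a split at 1%. Deviations from the group means correlated at -0.222 to 0.191 between libraries of the same number. Libraries of different numbers were not compared, so these values cannot decide whether the numbers pair the samples.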

Additional observations from a re-analysis of the deposited data

Results flagged for a closer look

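There were 116 checks of a gene, or of the mean log2 deviation of the 28 genes, in a group of 4 libraries. In 3 of them, each of a gene, a single library was far from the other 3 (Dixon's criterion). That criterion takes the gap to the nearest library as a share of the group's range. Chance gives about 1 such flag in 20 checks, a larger share than 3 in 116. Pmvk in fast food antibiotic replicate 2 was 36.7 CPM, with the other 3 at 9.75 to 13.8 CPM (0.851 of the range). Insig2 in fast food antibiotic replicate 1 was 431 CPM, with the other 3 at 136 to 181 CPM (0.847). Ebp in chow antibiotic replicate 2 was 221 CPM, with the other 3 at 165 to 171 CPM (0.894). The difference between fast food and chow was called unequal in the 2 waters for Tm7sf2 and Tmem97. For Tm7sf2 the log2 differences were -0.34 in antibiotic and 0.51 in control water (interaction -0.86). For Tmem97 they were -0.74 in antibiotic and 0.27 in control water (interaction -1.01). These calls held in 13 of 24 alternative settings for Tm7sf2 and in 16 of 24 for Tmem97.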

How the results depend on the processing

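After chow, antibiotic against control water gave 21 to 23 called genes in each of the 17 settings run. The other counts moved. DESeq2 called 6 genes for fast food against chow in antibiotic water, 7 for antibiotic against control water after fast food, 6 for the interaction and 1 for the meals in control water, beside 2363, 1523, 1106 and 299 of all genes (1800, 790, 519 and 76 by edgeR). Fits to the 2 groups compared gave 0, 1 and, in control water, 4 genes, beside 229, 972 and 365 of all genes. No filter on low counts gave 1 gene for the waters after fast food, beside 545 of all genes. When the 3 libraries of highest acute phase score were left out, the counts were 17 for the meals in antibiotic water, 1 for the waters after fast food and 17 for the interaction (1 of each 17 higher), whose median moved to -1.30, and over all genes 3206, 1025 and 1851 were called. With the ribosomal RNA-like share as a covariate or as a split, 0 listed genes were called for the waters after fast food and 0 for the interaction. Over all genes the covariate gave 15 and 183 calls in these, and the split 0 and 262. Leaving out single libraries gave 1 to 18 genes for the meals in antibiotic water and 0 to 8 for the waters after fast food. It gave 0 to 12 for the interaction and 0 for the meals in control water in each case. Over all genes, in the same order, 697 to 3042, 78 to 933, 164 to 1494 and 11 to 42 were called. With the replicate number as a block, a pairing the labels do not state, 6 genes were called for the meals in antibiotic water and 1 for the interaction. Over all genes 1547 and 355 were called in these, and no other count of listed genes moved by over 1.5 times. Among the genes followed in each comparison, some signs turned. For the meals in control water Srebf2 became 0.01 without the 3 libraries, Hmgcs1 -0.24 and Sqle -0.08 with the covariate, and Hmgcs1 -0.04 without fast food control replicate 2 (-0.04 to 0.17 over single libraries left out). For the interaction Srebf2 became 0.08 with the covariate and ran from -0.40 to 0.15 without single libraries, and Insig2, from -0.15 to 0.59, became -0.15 without fast food antibiotic replicate 1 and -0.05 without chow control replicate 4. Some settings had fewer libraries, and the cause of these moves was not tested. Depth limits Idi1 most, with 10 reads in its lowest library.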
